A study of Mus musculus with 4 samples.

Results

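The genes described here build sterols and fatty acids. They are 30 named genes of the 55487 in the deposited tables, chosen by symbol and found through their Ensembl identifiers, and all 30 were present once. Of these, 22 belong to sterol synthesis and its control: 7 act up to farnesyl diphosphate (Acat2, Hmgcs1, Mvk, Pmvk, Mvd, Idi1, Fdps), 11 lead from there through squalene to cholesterol (Fdft1, Sqle, Lss, Cyp51, Msmo1, Nsdhl, Hsd17b7, Tm7sf2, Ebp, Sc5d, Dhcr7) and 4 control the pathway or move its product (Srebf1, Srebf2, Insig1, Stard4). The other 8 make and modify fatty acids (Acly, Acaca, Fasn, Elovl6, Scd1, Scd2, Fads1, Fads2). The mice were 6 to 12 weeks old, received no treatment and carried Lgr5-EGFP-IRES-creERT2, an allele that makes EGFP wherever the stem cell gene Lgr5 is on. From the small intestine, EGFP-positive cells that lacked CD24 were sorted (SISC, small-intestinal stem cells). From the large intestine, EGFP-positive cells were sorted and the labels mention no gate on CD24 (LISC, large-intestinal stem cells). Intestine and the gate named go together in every comparison below, so their parts in a difference cannot be told apart. Each group held 2 libraries, and the labels do not say whether these came from separate animals or pools, so each p-value reflects no more than how far these libraries differ, which may be technical variation.

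Cells make cholesterol from acetyl-CoA by way of mevalonate and squalene, and fatty acids from the same precursor by way of malonyl-CoA. Both routes are driven by the SREBP transcription factors, which Srebf1 and Srebf2 encode and which the cell releases from the endoplasmic reticulum when membrane sterol is low. In the intestine the epithelium both makes sterol and takes it up from food and bile, and dividing crypt cells need lipid for new membrane.

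Total expected counts ran from 12795434 to 27227715 per library. Libraries with the same replicate number shared features of their own: rRNA genes took 31.8% (SISC) and 36.6% (LISC) of all counts in replicate 1, but 0.246% and 0.304% in replicate 2. Log2 differences within each replicate number, which compare single libraries and carry no test, are therefore given beside the pooled values of the called genes and of some others. Where a pair of values follows, replicate 1 stands before replicate 2. The sorted cells showed epithelial markers at summed levels of 3799 to 5094 CPM (counts scaled to a common library size with TMM factors, the unit of all levels below unless TPM is named) and 7 stromal and endothelial markers at 0.0728 to 1.27 CPM in sum, with Col3a1 and Dcn at 0 in both SISC libraries. The 7 stem cell markers summed to 1312 and 1652 CPM in SISC replicates 1 and 2 and to 1038 and 850 CPM in LISC replicates 1 and 2. None of them was called by edgeR. Within replicate 1 Lgr5, Ascl2, Lrig1 and Sox9 were higher in LISC, at log2 values of 0.37, 0.05, 0.04 and 0.20. Within replicate 2 all 7 were lower in LISC. Summed levels of markers of other crypt cells also differed between the groups, although edgeR called none of the Paneth, goblet or tuft markers below. The 7 Paneth cell markers summed to 8392 and 1173 CPM (SISC) against 54.9 and 27.0 CPM (LISC), and the 8 goblet and deep crypt secretory markers to 1951 and 342 CPM (SISC) against 3743 and 7029 CPM (LISC). Among the goblet markers Tff3, Clca1 and Zg16 were lower in LISC within replicate 1, at log2 values of −0.07, −1.29 and −2.74. The 5 tuft cell markers summed to 21.2 and 4.50 CPM (SISC) against 81.7 and 124 CPM (LISC). The 7 enteroendocrine markers summed to 169 and 34.1 CPM (SISC) against 62.8 and 90.2 CPM (LISC). Among them Sct was called higher in LISC and Gip higher in SISC (edgeR adjusted p = 0.0447 and 0.0403). The 7 immune markers summed to 14.8 and 18.3 CPM (SISC) against 34.8 and 38.2 CPM (LISC), mostly Cd14, and none was called. In sorted bulk samples, more cells of a type and more RNA per cell cannot be told apart.

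Among the 30 genes, the stearoyl-CoA desaturase genes Scd1 and Scd2 rose in LISC and none fell, by edgeR's quasi-likelihood test with Benjamini-Hochberg adjustment over 14165 genes (adjusted p below 0.05). Of all genes tested, this test called 2.2%, with 1.45% higher in LISC against 0.741% higher in SISC. All 30 members were tested. Before adjustment, 4 members had a p below 0.05, each higher in LISC, against 13.4% of all genes in either direction and 8.73% higher in LISC. DESeq2 called the same pair of members, where it called 7.41% of all genes (4.94% higher in LISC, 2.47% higher in SISC). A fit with the replicate number as a block called 4 members, all higher in LISC, where it called 10.9% of all genes (7.17% higher in LISC, 3.7% higher in SISC). The block takes a further term from the same libraries and leaves little data from which to estimate their spread. No sterol member was called by edgeR without that block, by DESeq2 or by limma-trend, and 1 of the 22, Dhcr7, had an unadjusted edgeR p below 0.05.

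Scd1 and Scd2 encode enzymes that turn saturated into monounsaturated fatty acids, mainly stearate into oleate. They lie in a cluster of related genes on chromosome 19 (GRCm38), Scd2 (ENSMUSG00000025203) at 44293674 to 44306864 on the plus strand and Scd1 (ENSMUSG00000037071) at 44394455 to 44407879 on the minus strand. Their coding sequences, of 1068 bases in Scd1 and 1077 in Scd2, were identical at 90.4% of 1068 aligned bases, so reads from shared stretches could be divided between them by the authors' counting. The coding stretches shown are those where the genes differ most and where they cannot be told apart. The first pair is the most different window of 90 bases, with 30 differing bases in capitals (Scd1 at chr19:44406621-44406710, minus strand, and Scd2 at chr19:44294963-44295052, plus strand; each 5′ to 3′ on its own strand). The third line is the longest run that both share, of 147 bases over an exon junction.
Scd1: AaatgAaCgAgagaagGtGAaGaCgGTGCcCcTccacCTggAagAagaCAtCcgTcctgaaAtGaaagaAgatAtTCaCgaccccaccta
Scd2: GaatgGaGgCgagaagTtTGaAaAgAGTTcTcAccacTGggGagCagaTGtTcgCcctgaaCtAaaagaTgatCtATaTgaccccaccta
Scd1 and Scd2: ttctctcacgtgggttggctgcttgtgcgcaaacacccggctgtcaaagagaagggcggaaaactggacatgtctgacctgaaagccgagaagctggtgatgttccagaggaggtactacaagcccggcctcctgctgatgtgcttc
Of the 1019 words of 50 bases in the Scd1 coding sequence, 145 (14.2%) also occurred in that of Scd2.

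Scd2 was read at 64.9 and 49.2 CPM (SISC) against 423 and 318 CPM (LISC). Both LISC libraries thus stood far above both SISC libraries, with means of 370 ± 74.4 and 57.0 ± 11.1 CPM (SD, n = 2 each). The difference was 6.49-fold, or 2.699 ± 0.36 on the log2 scale (SE; edgeR adjusted p = 0.0428), and the log2 values within replicates 1 and 2 were 2.704 and 2.691. Its call was close to the threshold and was lost when any of the 4 libraries was left out (adjusted p = 0.0678 without SISC replicate 1, 0.134 without SISC replicate 2, 0.0807 without LISC replicate 1 and 0.0748 without LISC replicate 2), with log2 differences of 2.48 to 2.90. The part of other cell types in the difference between intestines was not tested.

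Scd1 had 1 and 2 counts in SISC replicates 1 and 2 and 77 and 268 counts in LISC replicates 1 and 2, the latter equal to 7.13 and 9.21 CPM. By pooled counts it was 132-fold higher in LISC (exact 95% interval 44.8 to 643, counting error only), and edgeR called it (adjusted p = 0.0216), with log2 values of 6.62 and 7.204 within replicates 1 and 2. Its call was kept without each library in turn and lost with limma-trend on log2(TPM + 1), where its log2 difference was 1.55 (adjusted p = 0.113). Scd1 was the minor gene of the pair: it held 1.66% and 2.82% of the counts of both genes in LISC and 0.112% and 0.127% in SISC. The share of the pair held by Scd1 was thus higher in both LISC libraries, but the SISC shares rest on 1 and 2 counts. Reads from shared stretches could also be divided between the genes by the counting, and the difference in share was not tested. The related genes Scd3 and Scd4 were not tested for low counts; Scd3 had 0 counts in all 4 libraries and Scd4 at most 5.

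**Figure D1:**
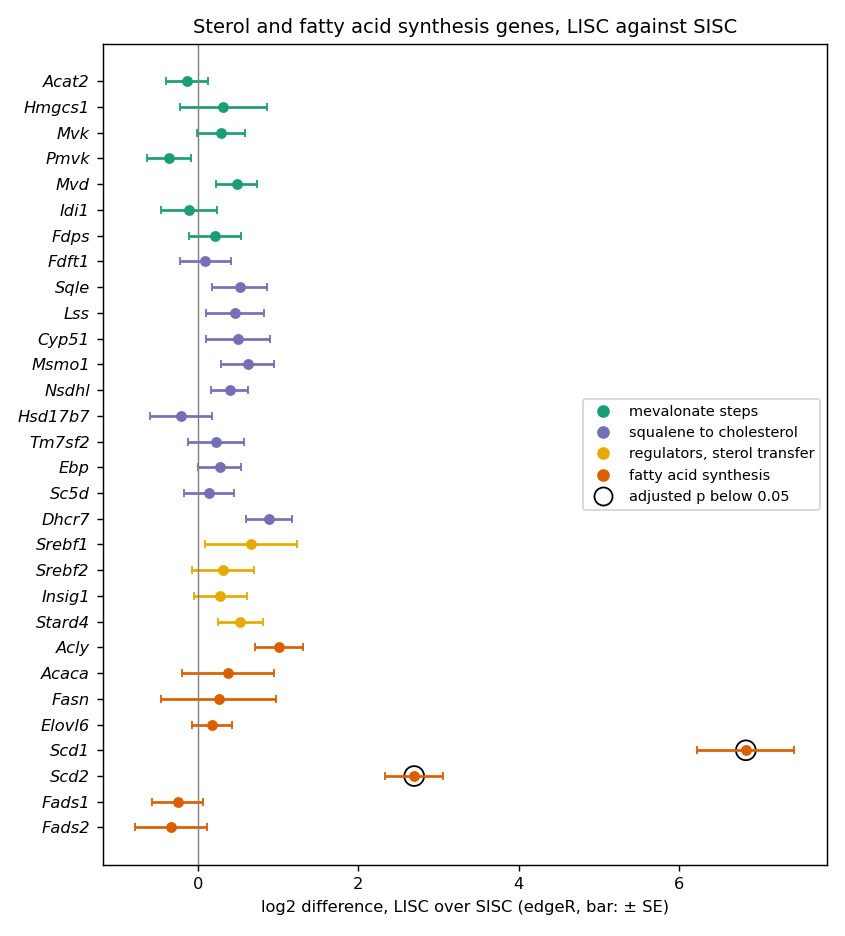
Log2 difference of LISC over SISC for the 30 genes, with bars of ± SE from edgeR and colours for the pathway role. Circles mark the called genes Scd1 and Scd2, and the other 28 lie between −0.36 and 1.02.

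Upstream of the desaturases, Acly, which splits citrate to supply cytosolic acetyl-CoA for both pathways, was read at 105 and 92.8 CPM (SISC) against 177 and 223 CPM (LISC). The groups did not overlap, and the 2.02-fold difference (log2 1.02 ± 0.30; 0.75 and 1.27 within replicates 1 and 2) had an unadjusted p of 0.0196 and missed the threshold (edgeR adjusted p = 0.216). Acaca, the carboxylase that commits acetyl-CoA to fatty acids, had 99.97 and 38.0 CPM (SISC) against 115 and 64.1 CPM (LISC), and Fasn, the synthase that assembles palmitate, had 319 and 95.7 CPM (SISC) against 347 and 150 CPM (LISC). For both genes replicate 1 stood above replicate 2 in each intestine and the groups overlapped (log2 0.38 ± 0.57 and 0.26 ± 0.72). Elovl6, which lengthens palmitate, ranged from 40.05 to 47.9 CPM in small-intestinal and from 47.7 to 51.7 CPM in large-intestinal libraries.

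Fads1 and Fads2 encode the front-end desaturases that make long polyunsaturated fatty acids. Fads2 was read at 519 and 363 CPM (SISC) against 447 and 254 CPM (LISC), and Fads1 at 130 and 175 CPM (SISC) against 142 and 114 CPM (LISC). The groups overlapped for both genes, with log2 differences of −0.33 ± 0.44 for Fads2 and −0.25 ± 0.32 for Fads1 (edgeR adjusted p = 0.951 and 0.949). Over the 8 fatty acid members the median log2 difference was 0.32, against −0.02 over all genes tested, and 0.22 over the 6 without Scd1 and Scd2. It rested on single libraries: it was 1.17 without SISC replicate 1, −0.0011 without SISC replicate 2, 0.76 without LISC replicate 2 and 0.0074 without LISC replicate 1.

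**Figure D2:**
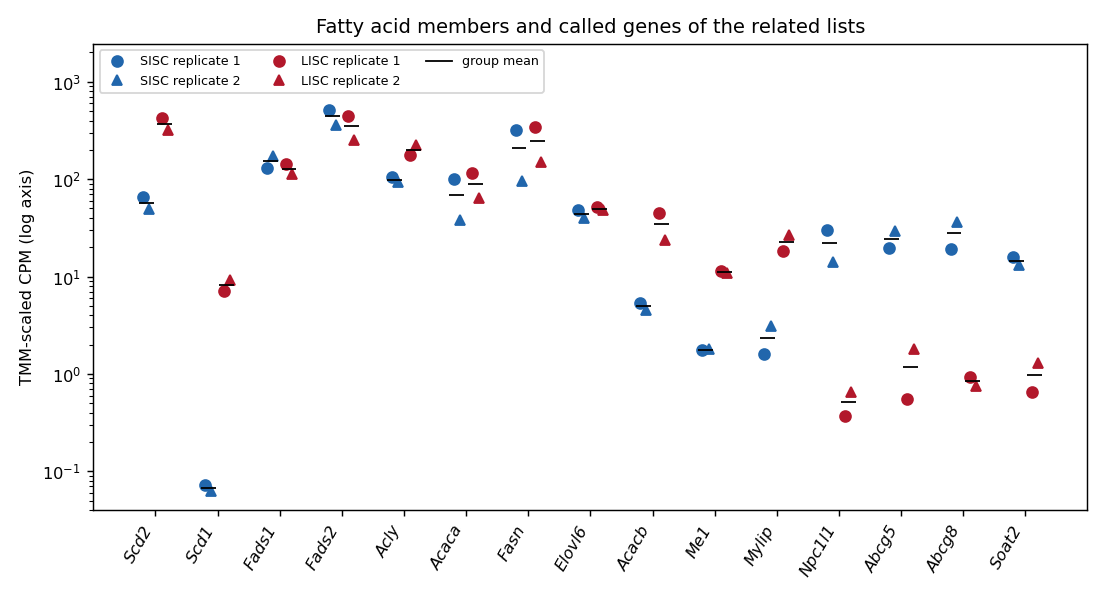
TMM-scaled CPM on a log axis for the 8 fatty acid members and the 7 called genes of the related lists; circles are replicate 1, triangles replicate 2, bars the mean of the 2 libraries. Scd2, Scd1, Acly, Acacb, Me1 and Mylip are higher in both LISC libraries, and Npc1l1, Abcg5, Abcg8 and Soat2 in both SISC libraries.

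In the mevalonate steps no gene was called. Hmgcs1, the HMG-CoA synthase gene, was read at 43.9 and 69.0 CPM (SISC) against 38.4 and 103 CPM (LISC), so that the replicate 2 libraries were higher in each intestine and the groups overlapped. Mvd, the mevalonate diphosphate decarboxylase gene, had 18.6 and 17.4 CPM (SISC) against 22.1 and 28.4 CPM (LISC), or on the log2 scale 0.49 ± 0.26 (edgeR adjusted p = 0.577) with no overlap of the groups. Fdps, the farnesyl diphosphate synthase gene, had 43.1 and 45.8 CPM (SISC) against 39.3 and 64.0 CPM (LISC). Pmvk, the phosphomevalonate kinase gene, was the 1 member with both LISC libraries (14.8 and 20.3 CPM) below both SISC libraries (23.5 and 21.8 CPM), at −0.36 ± 0.27 on the log2 scale (edgeR adjusted p = 0.790). Acat2 (the cytosolic acetoacetyl-CoA thiolase), Mvk (mevalonate kinase) and Idi1 (isopentenyl diphosphate isomerase) lay between −0.13 and 0.29.

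From squalene to cholesterol the differences were mostly above 0 and small. Dhcr7, the reductase of the final step, was read at 31.9 and 21.99 CPM (SISC) against 52.1 and 48.0 CPM (LISC), with no overlap. Its 1.86-fold difference (log2 0.89 ± 0.28; 0.71 and 1.13 within replicates 1 and 2) had an unadjusted p of 0.0261 and missed the threshold (edgeR adjusted p = 0.255). Msmo1, the methylsterol oxidase gene, had 18.6 and 18.5 CPM (SISC) against 21.1 and 36.1 CPM (LISC; log2 0.63 ± 0.33). Sqle, the squalene epoxidase gene, had 22.9 and 30.4 CPM (SISC) against 28.9 and 47.9 CPM (LISC; log2 0.53 ± 0.34). Cyp51, the lanosterol demethylase gene, had 30.9 and 38.6 CPM (SISC) against 33.0 and 65.4 CPM (LISC; log2 0.50 ± 0.40). For Sqle and Cyp51 the groups overlapped, and none of these 3 passed edgeR's test (adjusted p = 0.584, 0.714 and 0.806). Lss (lanosterol synthase) and Nsdhl (a sterol dehydrogenase) also had both LISC libraries above both SISC libraries, at 0.46 ± 0.36 and 0.40 ± 0.23. Fdft1 (squalene synthase), Ebp (a sterol isomerase), Sc5d (a sterol desaturase), Tm7sf2 (a sterol reductase) and Hsd17b7 (a ketosterol reductase) lay between −0.20 and 0.27, and the groups overlapped for each of these 5.

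Srebf1, whose products favour fatty acid genes, was read at 111 and 57.4 CPM (SISC) against 189 and 77.3 CPM (LISC). Srebf2, whose product favours sterol genes, was read at 147 and 92.3 CPM (SISC) against 179 and 118 CPM (LISC). For both the replicate 1 library was the higher of its intestine and the groups overlapped, with log2 differences of 0.67 ± 0.57 and 0.32 ± 0.39 (edgeR adjusted p = 0.832 and 0.937). Insig1, which holds SREBP back in the endoplasmic reticulum, had 20.5 and 24.6 CPM (SISC) against 20.6 and 34.3 CPM (LISC). Stard4, a sterol transfer protein gene, had 64.0 and 65.8 CPM (SISC) against 81.0 and 107 CPM (LISC), or on the log2 scale 0.53 ± 0.28 with no overlap (edgeR adjusted p = 0.576).

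Read as a list, 24 of the 30 members had a log2 difference above 0, against 48.0% of all genes tested, and 14 of the 18 sterol enzymes did. The median of the 18 enzymes was 0.28, but 0.05 within replicate 1 and 0.44 within replicate 2, and 0.03 without LISC replicate 2. Counted on CPM, both LISC libraries stood above both SISC libraries in 9 members, or 30%, against 21.9% of all genes. In 1 member, Pmvk, they stood below, against 18.4% of all genes. The first share is near that of all genes. Within replicate 1, 21 members were higher in LISC, and within replicate 2, 25, against 6807 and 6899 of the 14165 genes tested.

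**Figure D3:**
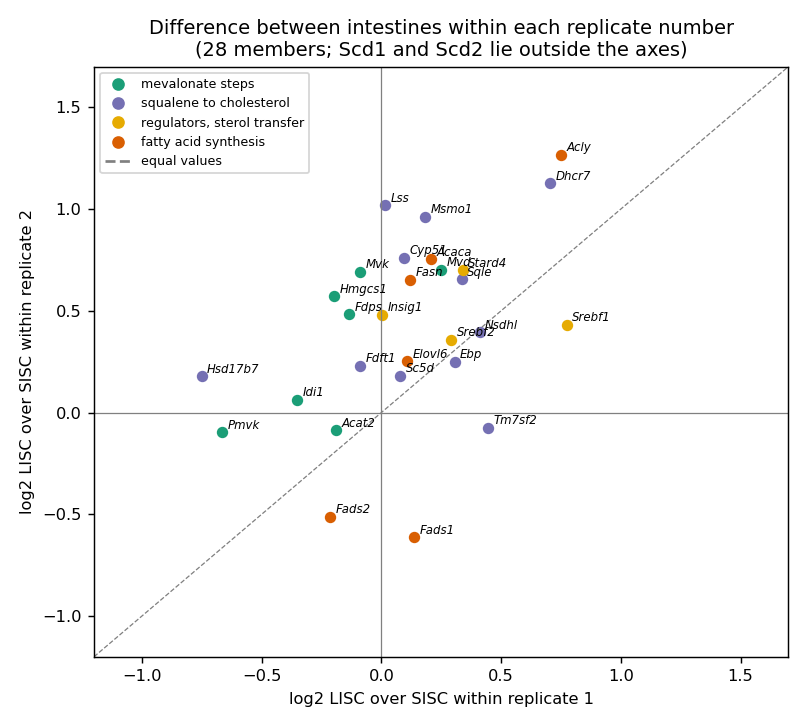
Log2 difference of LISC over SISC within replicate 1 (horizontal) and replicate 2 (vertical) for 28 members, each a comparison of single libraries, with Scd1 and Scd2 outside the axes; the dashed line marks equal values. Acly and Dhcr7 are the farthest to the upper right, and most sterol enzymes lie above the dashed line.

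Levels of different genes were compared per length, as TPM rescaled to a common total over protein-coding genes outside the mitochondrial genome. Fads2 led the list in both intestines, at 243 ± 84.0 TPM in SISC and 247 ± 143 TPM in LISC (SD, n = 2 each). In SISC it was followed by Fads1 at 75.7 ± 8.92 TPM and Fdps at 70.9 ± 8.70 TPM, which did not differ beyond their spread. In LISC it was followed by Scd2, at 143 ± 57.7 TPM, which had been 21st of 30 in SISC at 17.5 ± 4.87 TPM. Srebf1 (108 ± 92.6 TPM), Acly (100.1 ± 6.92 TPM) and Fdps (95.01 ± 9.43 TPM) came next in LISC, within each other's spread. Within the sterol route Fdps and Ebp (53.2 ± 6.62 TPM in SISC and 75.5 ± 7.34 TPM in LISC) were the most abundant enzymes and Lss (7.39 ± 2.44 and 11.2 ± 0.440 TPM) and Hsd17b7 (4.86 ± 0.436 and 4.12 ± 1.06 TPM) the least. The 18 sterol enzymes summed to 472 and 441 TPM in SISC and to 648 and 642 TPM in LISC, a 1.41-fold difference. On this scale the median of 12400 protein-coding genes tested was itself 1.203-fold higher in LISC (log2 0.27). The median of the enzymes exceeded that median by 0.25 on the log2 scale. Overlap of the groups was stated on CPM and can differ in TPM. Here Sqle did not overlap (15.3 and 17.7 TPM in SISC, 25.8 and 31.3 TPM in LISC). Pmvk did (44.1 and 32.4 TPM in SISC, 35.1 and 34.1 TPM in LISC).

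**Figure D4:**
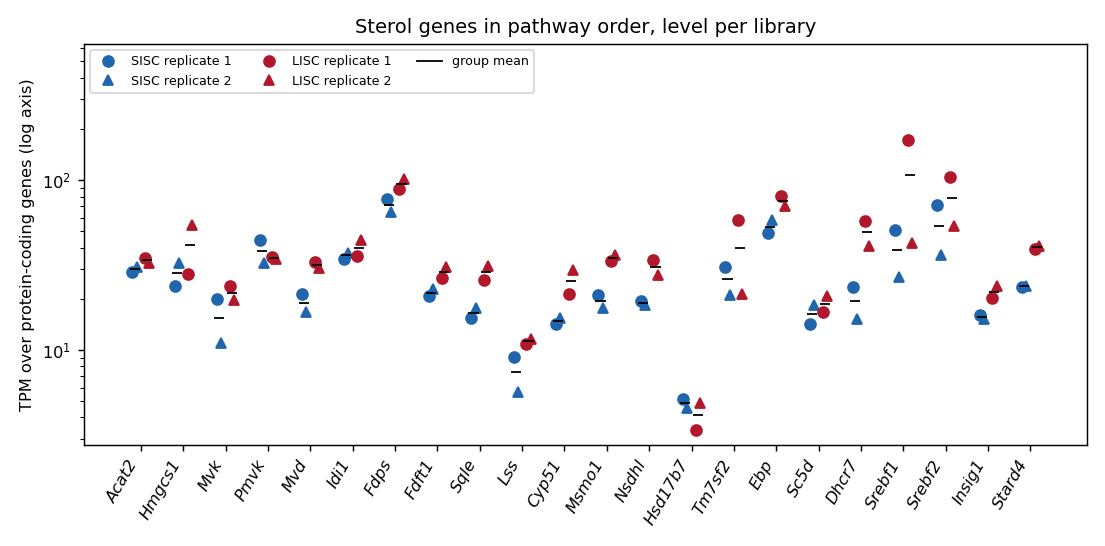
Rescaled TPM per library on a log axis for the 22 sterol members in pathway order; circles are replicate 1, triangles replicate 2, bars group means. Fdps and Ebp are the highest enzymes, Hsd17b7 the lowest, and Srebf1 and Srebf2 are higher in replicate 1 of each intestine.

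The members also differed between replicates of 1 intestine. Of the 18 sterol enzymes, 16 were higher in replicate 2 than in replicate 1 within LISC and 10 within SISC, those 10 being higher in both. Of all 14165 genes tested, 7710 were higher in replicate 2 within LISC, 7007 within SISC and 5438 in both, and 4592 were lower in both. The counts of different roles were not tested against each other. Of the 8 fatty acid members, none was higher in replicate 2 in both intestines and 5 were lower in both. Hmgcs1 was higher in replicate 2 by 0.65 on the log2 scale in SISC and 1.42 in LISC, whereas Fasn differed by −1.74 and −1.21, Acaca by −1.39 and −0.85 and Srebf1 by −0.95 and −1.29. The median over all genes tested was 0.02 in SISC and 0.08 in LISC. These differences ran with transcript composition and length: across the 30 members, the log2 difference of replicate 2 over replicate 1 correlated with the GC content of the longest annotated transcript at r = −0.52 in SISC and −0.58 in LISC, and with its log length at −0.54 and −0.37. Across 13597 genes tested these values were −0.16 and −0.15 for GC content and −0.27 and −0.16 for length. Genes are not independent replicates, and the points share the same pair of libraries. The longest transcript of Fasn has 10050 bases and 57.9% GC and that of Hmgcs1 3464 bases and 43.1% GC. The part of these properties and of the rRNA share in the replicate differences was not tested.

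**Figure D5:**
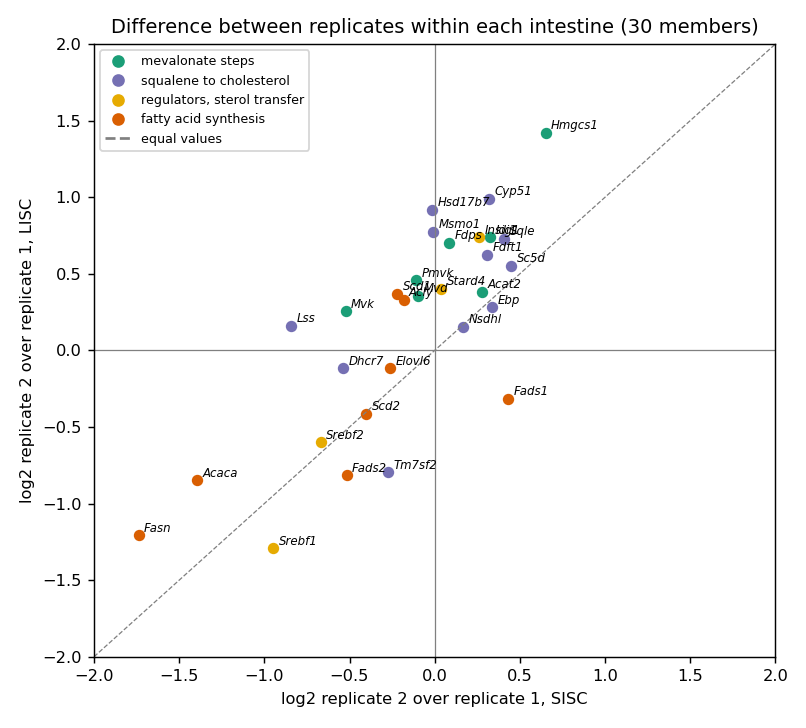
Log2 difference of replicate 2 over replicate 1 in SISC (horizontal) and in LISC (vertical) for the 30 members, coloured by role; the dashed line marks equal values. Hmgcs1 and other sterol enzymes lie to the upper right, and Fasn, Acaca and Srebf1 to the lower left.

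The promoters were examined for words known from sterol genes. Windows from RefSeq (GRCm38.p6) were used for 23 of the 30 members, 18 of 22 sterol and 5 of 8 fatty acid members. Those of the other 7 (Fdps, Fdft1, Sqle, Stard4, Fads1 and both called members, Scd1 and Scd2) were not used here. The 250 bases before each start were searched on both strands. The CCAAT word, bound by the factor NF-Y that works beside SREBP at many sterol genes, was present in 17 of the 18 sterol members and in 1 of the 5 fatty acid members, Fasn. Together this was 78.3% of the members, against 37.5% of 27025 genes and 33.8% of 32851 start sites. TCACNCCAC, a sterol response element word, shares no letters with CCAAT where both were found. It was present in Hmgcs1 alone of the 23 members with a window, or 4.35%, against 1.22% of genes and 1.05% of start sites. Only this exact word was searched, and near matches were not counted. A match is a run of letters and not a measured binding site, and no binding was measured here. Hmgcs1 is shown for the sterol response word and Sc5d, Srebf2 and Fasn as an enzyme, a regulator and a fatty acid gene with CCAAT, with both words in capitals on either strand (chr13:119690174-119690262, plus; chr9:42264301-42264364, minus; chr15:82147094-82147178, plus; chr11:120824562-120824646, minus; each 5′ to 3′ on the gene's strand).
Hmgcs1: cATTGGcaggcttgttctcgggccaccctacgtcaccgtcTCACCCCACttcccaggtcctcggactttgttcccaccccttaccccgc
Sc5d: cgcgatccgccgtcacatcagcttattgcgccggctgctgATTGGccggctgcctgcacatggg
Srebf2: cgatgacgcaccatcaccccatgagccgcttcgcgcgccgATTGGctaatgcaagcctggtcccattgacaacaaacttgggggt
Fasn: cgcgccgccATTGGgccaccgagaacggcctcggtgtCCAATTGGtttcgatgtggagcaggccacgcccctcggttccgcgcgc

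Other genes of these pathways were read from lists. Of 8 further sterol and isoprenoid synthesis genes, none was called in either direction and none had an unadjusted edgeR p below 0.05, with a median log2 difference of 0.13. Por, the electron donor of Cyp51 and Sqle, differed by 0.60 ± 0.24, Cyb5r3, a cytochrome b5 reductase, by 0.32 ± 0.34 and Ggps1, which makes geranylgeranyl diphosphate, by 0.24 ± 0.26.

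Of 21 genes of SREBP processing, uptake, storage and efflux, 4 passed the test as higher in SISC and 1 as higher in LISC. Of all genes tested, 0.741% and 1.45% were called higher in SISC and LISC. Npc1l1, the cholesterol importer of the brush border, had 30.1 and 14.0 CPM (SISC) against 0.371 and 0.653 CPM (LISC), a 40.1-fold change (edgeR adjusted p = 0.0293; log2 −6.34 and −4.42 within replicates 1 and 2). Abcg5 and Abcg8, whose products pair to pump sterol back into the lumen, exceeded their LISC levels 19.2-fold and 33.5-fold (edgeR adjusted p = 0.0461 and 0.0218). Abcg5 had 19.9 and 29.2 CPM (SISC) against 0.556 and 1.82 CPM (LISC). Abcg8 had 19.1 and 36.5 CPM (SISC) against 0.927 and 0.756 CPM (LISC). Within replicates 1 and 2 their log2 values were −5.16 and −4.001 for Abcg5 and −4.37 and −5.59 for Abcg8. Soat2, which esterifies cholesterol for export in lipoproteins, was 14.3-fold higher in SISC (15.9 and 13.3 CPM against 0.649 and 1.31 CPM; edgeR adjusted p = 0.0360; log2 −4.62 and −3.35 within replicates). In the other direction Mylip, a ubiquitin ligase gene that limits sterol uptake, had 1.60 and 3.09 CPM (SISC) against 18.4 and 26.7 CPM (LISC), a 9.42-fold change (edgeR adjusted p = 0.0441; log2 3.53 and 3.11 within replicates). Beside the genes higher in SISC, the 8 small-intestinal absorptive markers summed to 203 and 228 CPM (SISC) against 55.3 and 139 CPM (LISC), 3 of them called higher in SISC and Apoa4 at 0 in both LISC libraries. Fabp2 made up most of the LISC sums, at 51.2 and 131 CPM, and the other 7 markers summed to 161 and 138 CPM (SISC) against 4.08 and 8.08 CPM (LISC). Their part in these differences was not tested. The call of Abcg5 was lost without SISC replicate 2 (adjusted p = 0.0569) and that of Mylip without LISC replicate 2 (adjusted p = 0.0752).

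Among 30 further genes of fatty acid synthesis and use, 24 were tested. Of these, 2 were called higher in LISC and none higher in SISC, against 1.45% and 0.741% of all genes tested. Before adjustment 5 had an edgeR p below 0.05, each higher in LISC, against 8.73% of all genes. Acacb, the acetyl-CoA carboxylase tied to mitochondria, had 5.38 and 4.53 CPM (SISC) against 44.7 and 24.0 CPM (LISC), a 6.92-fold change (edgeR adjusted p = 0.0485; log2 3.05 and 2.40 within replicates 1 and 2). Me1, the malic enzyme that yields NADPH for lipid synthesis, had 1.75 and 1.81 CPM (SISC) against 11.3 and 10.9 CPM (LISC), a 6.21-fold change (edgeR adjusted p = 0.0431; log2 2.69 and 2.58 within replicates). Both calls were close to the threshold: that of Me1 was lost without any of the 4 libraries (adjusted p = 0.0563 to 0.154), and that of Acacb without LISC replicate 1 (0.0606) or SISC replicate 2 (0.109). The Acacb call was also lost with DESeq2 size factors in edgeR (0.0596), with rRNA genes removed (0.0561) and with limma-trend (0.150), and the Me1 call with limma-trend (0.207). Fads3, a relative of Fads1 and Fads2, had 10.6 and 7.90 CPM (SISC) against 38.5 and 26.6 CPM (LISC), short of the threshold (edgeR adjusted p = 0.0749), and Acsl4, which activates arachidonate, was 3.02-fold higher in LISC with an adjusted p of 0.227. The 7 large-intestinal absorptive markers summed to 32.4 and 32.5 CPM (SISC) against 477 and 1655 CPM (LISC), with Car1 and Aqp8 at 0 in both SISC libraries. Their part in the differences of Scd1, Scd2, Acacb and Me1 was not tested.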

How the data were processed

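Directional libraries were prepared from poly(A) RNA, per the labels' protocols. The submitters' processing notes list STAR 2.7.2b, RSEM 1.2.31 and GRCm38 (mm10). Annotation release and strand setting: not given in the sources used here. RSEM expected counts, which split multi-gene reads by estimated abundance, were deposited by the authors (8 of the 30 members were off a whole number by over 0.001 in some library), as were TPM, which are scaled by effective length. The deposited lengths and effective lengths, given as other values, gave the median fragment allowance only and enter no result.

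Symbols and coordinates are from GENCODE vM21. Rounded expected counts entered edgeR 4.0.16 under R 4.3.3 (quasi-likelihood test, TMM factors, filterByExpr with a minimum count of 10, group as the only term) across all 14165 genes kept, with Benjamini-Hochberg adjustment over them and a threshold of 0.05. Each standard error is approximate, the absolute log2 value over the root of F. At these depths 3 counts equal 0.110 to 0.234 CPM. Counting intervals cover counting error only. DESeq2 1.42.0 and limma 3.58.1 (log2 of TPM + 1, with TPM as deposited and not rescaled) served as alternatives among 12. Protein-coding genes outside the mitochondrial genome held 41.2% and 78.3% of deposited TPM in SISC replicates 1 and 2. In LISC replicates 1 and 2 they held 27.3% and 74.9%. The fits were also run on simulated counts, with less spread between libraries than these data and no shared replicate effect. That run cannot show how the fits perform on these data. Per-library values are given for members that were called, had an unadjusted p below 0.05, or were among the 10 largest differences or the 4 highest TPM. They are also given for the pairs Srebf1/Srebf2, Scd1/Scd2 and Fads1/Fads2, and for called genes of the related lists. Up to 4 genes of each related list with the largest difference at 1 TPM or more are named, not all with per-library values. Hmgcs1, Acaca, Fasn, Pmvk, Insig1, Elovl6 and the genes under other observations were named after their values were seen. The members and lists were chosen with earlier results of these data known. Some genes of the related lists are counted but their values are not reported here.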

Additional observations from a re-analysis of the deposited data

How the results depend on the processing

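Of 12 alternatives, another size factor, an upper-quartile factor, both other filters, DESeq2 and removal of rRNA genes left each member on its side of the threshold and with its direction. Members called higher in LISC numbered 2 in the main fit, 0 with limma-trend on log2(TPM + 1), where Scd1 and Scd2 had log2 differences of 1.55 and 2.56 (adjusted p = 0.113 and 0.0979), and 1 without each library in turn; the cause was not tested, apart from the fewer samples. Over all genes, 206 and 105 were called higher in LISC and SISC; DESeq2 called 779 and 389, no filter on low counts gave 942 and 465, and leaving out 1 library gave 166 to 338 and 79 to 149. Limma-trend called 258 and 151 of the 12400 genes it tested. With a replicate block the counts were 1015 and 524. That fit called 4 members, Acly (log2 1.01, adjusted p = 0.0275) and Dhcr7 (0.92, 0.0302) besides Scd1 and Scd2. Its further term is taken from the same libraries, which leaves little data from which to estimate their spread. Among the related genes the block also called Fads3 (1.81, 0.00402), as did DESeq2 (1.80, 0.00145) and no filter (1.81, 4.3e-05). The labels give only a shared number: deviations of same-numbered libraries from their group means correlated at 0.65 across genes, which is a hint from the data and not from the design. Leaving out 1 library gave medians of −0.0011 to 1.17 for the fatty acid members and 0.13 to 0.44 for the sterol members.

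Several members that were not called changed sign when 1 library was left out. Their log2 differences then ran from −0.17 to 1.23 for Acaca, −0.32 to 0.044 for Acat2, −0.065 to 0.91 for Cyp51, −0.79 to 0.033 for Fads2, −0.46 to 1.37 for Fasn, −0.24 to 0.37 for Fdft1, −0.17 to 0.52 for Fdps, −0.55 to 0.86 for Hmgcs1, −0.73 to 0.17 for Hsd17b7, −0.51 to 0.21 for Idi1, −0.12 to 0.60 for Insig1, −0.15 to 0.39 for Sc5d, −0.12 to 1.21 for Srebf1, −0.012 to 0.68 for Srebf2 and −0.22 to 0.59 for Tm7sf2, and, outside the members, −0.021 to 0.60 for Cyb5r3. Limma-trend gave −0.094 for Sc5d. The design has 2 libraries a group, and the median SE of the log2 difference among the members was 0.33.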

Other observations

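Some further genes of sterol and fatty acid handling, named here after their values were seen, missed the threshold. Soat1, the cholesterol acyltransferase gene related to Soat2, was read at 182 and 198 CPM (SISC) against 77.7 and 50.1 CPM (LISC; log2 −1.57 ± 0.34, edgeR adjusted p = 0.117), with no overlap of the groups. The sterol exporter genes Abca1 and Abcg1 were higher in both LISC libraries. Abca1 had 1.82 and 4.12 CPM (SISC) against 14.5 and 8.83 CPM (LISC; edgeR adjusted p = 0.196), and Abcg1 had 0.582 and 0.406 CPM (SISC) against 7.23 and 2.41 CPM (LISC; edgeR adjusted p = 0.144). Nr1h3, which encodes the sterol-sensing receptor LXR alpha, was lower in both LISC libraries, at 9.17 and 10.4 CPM against 14.4 and 19.8 CPM (edgeR adjusted p = 0.315).

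Acsl3, an acyl-CoA synthetase of lipid droplets, had 41.4 and 57.1 CPM (SISC) against 103 and 129 CPM (LISC), a 2.36-fold change (edgeR adjusted p = 0.155). Mlxipl, which encodes the carbohydrate-responsive factor ChREBP, had 238 and 130 CPM (SISC) against 130 and 56.0 CPM (LISC; edgeR adjusted p = 0.612), so that LISC replicate 1 lay just below SISC replicate 2.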
